A study of Mus musculus with 6 samples.

Results

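WNK kinases and the cation chloride cotransporters they control were read in MIN6 cells, a mouse insulinoma line used as a beta cell model, through 9 of the 18193 genes named on the array, or 19 of its 45101 probe sets. The genes are Wnk1, Wnk2, Wnk3 and Wnk4, the kinases Stk39 and Oxsr1, and the transporters Slc12a2, Slc12a5 and Slc12a7, and every probe set annotated with one of these symbols alone was taken. The genes were chosen by symbol with results of these arrays already known, among them the measured difference of Wnk2 between the groups, so the differences below are descriptions and support no call on a member. MIN6 cells transfected with an siRNA against Hlxb9, the homeobox factor also called Mnx1, were compared with MIN6 cells given a scrambled negative control siRNA, with 3 arrays in each group. Both groups were transfected by nucleofection and with RNAiMax, grown in low glucose medium, and RNA was taken 72 hours later. Arrays were run on RNA from transfections in which Hlxb9 protein was reduced by more than 75% on western blots. The design text speaks of independent transfections but does not tie the replicate numbers to them, and the labels call the samples sorted cells without naming a gate.

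WNK kinases are serine/threonine kinases named for the unusual place of their catalytic lysine, and they respond to cell chloride and osmotic stress. They phosphorylate and switch on the kinases SPAK, encoded by Stk39, and OSR1, encoded by Oxsr1. These in turn phosphorylate the transporters, which activates the sodium-driven importer NKCC1 and inhibits the potassium-driven exporters of the KCC group. The balance of the import and export arms sets cell chloride, which in beta cells bears on membrane potential and on the sign of the response to GABA.

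Values are log2 probe set signals after RMA, where 1 unit is a doubling, and a difference is Hlxb9 siRNA minus control siRNA with limma's moderated standard error (SE). Levels of different probe sets are not comparable, so each is placed by the percent of the 45037 non-control probe sets that were dimmer. Control siRNA replicate 3 stood apart. It correlated with the other arrays at 0.988 to 0.991, against 0.995 or higher among those, and its Gapdh control signal at the 3' end exceeded that at the 5' end by 2.13 log2, against 0.65 to 0.78. Differences without it are therefore given as well. It was the highest or lowest of the 6 arrays for 11 of the 19 probe sets, against 57.3% of all probe sets. Mnx1 transcript itself read 7.53, 7.41 and 7.28 after Hlxb9 siRNA and 7.82, 7.50 and 7.77 after control siRNA. That is a difference of -0.29 ± 0.13 log2 (SE) with overlap, on the only probe set with that symbol alone. All 9 matched beta cell markers lay above the median of all probe sets, each brighter than at least 83.8% of them, whereas all 4 kidney tubule markers (Umod, Slc12a1, Slc12a3 and Aqp2) lay below it. Gcg and Sst, hormone genes of alpha and delta cells, were also brighter than 99.2% and 99.4% of probe sets. Ppy, the hormone gene of PP cells, read 10.95, 10.76 and 8.55 after Hlxb9 siRNA and 9.86, 9.68 and 7.32 after control siRNA. Replicate 3 was thus its lowest array in both groups. Its difference was 1.13 ± 0.81 log2 (SE) with overlap, and 0.32 without control siRNA replicate 3. Among leukocyte markers Cd68 was 0.54 log2 higher after Hlxb9 siRNA without overlap, while Ptprc and Lyz2 were dimmer than the median of all probe sets and differed by 0.10 and -0.25. Among neuron markers Syt1 was 0.40 log2 higher without overlap (-0.11 to 0.36 on its other probe sets). Tubb3, Snap25, Map2 and Rbfox3 differed by 0.04, -0.04, -0.13 and -0.24. The summed signal of the 3 leukocyte markers, most of it from Cd68, was 181 to 193 after Hlxb9 siRNA and 130 to 157 after control siRNA. That of the 5 neuron markers, most of it from Snap25 and Map2 and little from Syt1, was 7110 to 7450 after Hlxb9 siRNA and 7390 to 8130 after control siRNA. The part of these markers in the results below was not tested.

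Promoter sequence is shown for the members on which the values below turn, Wnk2 for its difference between the siRNA groups and Stk39 for its difference between replicate numbers. Each is the 250 bases before an annotated start, 5' to 3' on the gene's own strand, from RefSeq on GRCm38.p6, at chr13:49148329-49148578 (minus strand) for Wnk2 and chr2:68471982-68472231 (minus strand) for Stk39. Capitals mark TAAT or its reverse complement ATTA, the core letters that homeobox factors bind.
Wnk2: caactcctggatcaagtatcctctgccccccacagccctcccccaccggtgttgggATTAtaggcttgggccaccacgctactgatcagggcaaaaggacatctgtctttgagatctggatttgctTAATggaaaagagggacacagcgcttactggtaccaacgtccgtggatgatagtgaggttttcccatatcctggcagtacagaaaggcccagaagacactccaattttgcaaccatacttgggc
Stk39: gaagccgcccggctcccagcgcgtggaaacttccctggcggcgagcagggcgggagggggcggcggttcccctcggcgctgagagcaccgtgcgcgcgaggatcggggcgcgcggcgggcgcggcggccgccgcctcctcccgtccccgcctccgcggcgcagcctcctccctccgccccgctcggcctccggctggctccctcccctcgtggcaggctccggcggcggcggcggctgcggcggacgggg
The Wnk2 window holds 1 copy of each core, and the Stk39 window holds neither. RefSeq windows were found for 8 of the 9 genes, 10 windows in all, and TAAT or ATTA on either strand occurred in 2 of them (Wnk2 and Wnk3), against 54.9% of the 32851 windows in the table. The longer form TAATTA, which is its own reverse complement and contains both cores, was in 0 of the 10 and in 4.84% of all windows. The Stk39 window is 82.4% G and C, more than 99.4% of windows, and that of Wnk2 51.6%, more than 46.9%. A match of letters is only a description of the window.

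Wnk2, the WNK kinase best known from brain, was the member with the largest difference. Its brightest probe set read 5.84, 5.89 and 5.79 after Hlxb9 siRNA, against 6.21, 6.42 and 6.49 after control siRNA. The groups were apart, the highest Hlxb9 siRNA array being below the lowest control, with a gap of 0.32 log2 between the nearest arrays. The means were 5.84 ± 0.05 and 6.37 ± 0.14 (SD, n = 3 each), a difference of -0.53 ± 0.11 log2 (SE, 95% interval -0.79 to -0.28), or a level 30.8% lower after Hlxb9 siRNA. Within arrays of the same replicate number it was lower by -0.38, -0.53 and -0.69 log2, and without control siRNA replicate 3 the difference was -0.47. Its size exceeded that of 98.5% of all probe sets. This probe set was of middling brightness, above 58.2% of the array.

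The other probe sets of Wnk2 did not share that separation. The second read 4.57, 4.66 and 4.16 after Hlxb9 siRNA and 4.50, 4.77 and 4.26 after control siRNA, a difference of -0.05 ± 0.18 log2 (SE). The third read 4.27, 4.20 and 4.39 after Hlxb9 siRNA and 4.17, 4.36 and 4.21 after control siRNA, a difference of 0.04 ± 0.11 log2. Both overlapped between the groups and were dimmer than the median of all probe sets. The mean of the 3 probe sets differed by -0.18 log2. The annotation does not say which transcripts or exons each probe set reads.

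**Figure D1:**
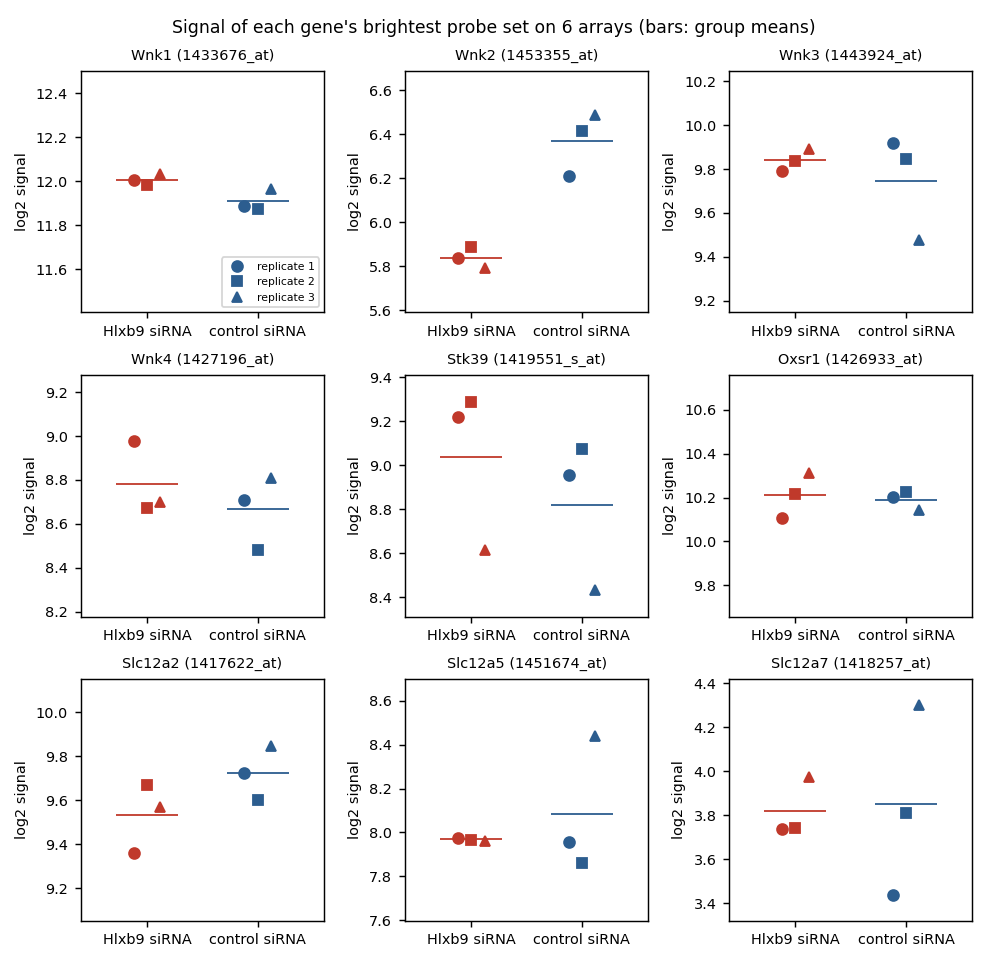
Log2 signal (vertical axis, 1.1 units tall in every panel) of the brightest probe set of each of the 9 genes on the 3 Hlxb9 siRNA arrays (left, red) and the 3 control siRNA arrays (right, blue), with the marker shape giving the replicate number and bars the group means. Wnk2 lies wholly lower after Hlxb9 siRNA and Wnk1 barely higher, while the groups overlap for the other 7 genes.

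Wnk1, the widely expressed founding member of the family, was bright and nearly level across the arrays. Its brightest probe set, above 97.4% of the array, read 12.01, 11.98 and 12.04 after Hlxb9 siRNA and 11.89, 11.87 and 11.97 after control siRNA. The groups did not overlap, though the nearest arrays were only 0.018 log2 apart. The difference was 0.10 ± 0.09 log2 (SE), and 0.047 after each array was centred on its median, which ended the separation. A second probe set read 8.42, 8.37 and 8.53 after Hlxb9 siRNA and 8.45, 8.34 and 8.33 after control siRNA, with overlap and a difference of 0.07 log2. The third, a dim one, differed the other way by -0.21 ± 0.12 log2 (-0.37 with array weights), with 4.02, 3.91 and 4.01 after Hlxb9 siRNA and 3.99, 4.37 and 4.21 after control siRNA. The mean of the 3 probe sets differed by -0.013 log2.

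Wnk3, a kinase known in neurons for activating NKCC1, read 9.79, 9.84 and 9.89 after Hlxb9 siRNA and 9.92, 9.85 and 9.48 after control siRNA on its only probe set. Control siRNA replicate 3 was the low one, and the other 5 arrays lay close together. The difference of 0.09 ± 0.14 log2 (SE) accordingly became -0.04 without that array. Wnk4, best known for controlling salt transport in the kidney, read 8.98, 8.67 and 8.70 after Hlxb9 siRNA and 8.71, 8.48 and 8.81 after control siRNA on its only probe set, brighter than 79.0% of the array. The groups overlapped, with a difference of 0.12 ± 0.13 log2. The bright Wnk4 signal stood beside kidney tubule markers brighter than 4.2% to 44.2% of the array.

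The 2 kinases below the WNKs behaved differently across arrays. Oxsr1, encoding OSR1, was close to level, at 10.11, 10.21 and 10.31 after Hlxb9 siRNA and 10.20, 10.22 and 10.14 after control siRNA, with a difference of 0.02 ± 0.10 log2 (SE). Stk39, encoding SPAK, varied far more within each group than between the groups. Its brightest probe set read 9.22, 9.29 and 8.61 after Hlxb9 siRNA and 8.96, 9.07 and 8.43 after control siRNA. Replicate 3 was the lowest array in both groups, by 0.64 and 0.58 log2 below the mean of replicates 1 and 2 in Hlxb9 siRNA and control siRNA cells.

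A second Stk39 probe set gave the same order, with 6.23, 6.12 and 5.44 after Hlxb9 siRNA and 6.23, 6.03 and 5.36 after control siRNA. Here replicate 3 lay 0.74 and 0.77 log2 below the mean of the others in Hlxb9 siRNA and control siRNA cells. Both probe sets were designed on the same source sequence, so they are not independent readings. The dimmest probe set (brighter than 13.5% of the array) did not follow, at 2.90, 3.12 and 3.09 after Hlxb9 siRNA and 3.33, 3.09 and 2.71 after control siRNA. Hlxb9 siRNA replicate 3 did not share the Gapdh 3' to 5' gap of control siRNA replicate 3, at 0.70 against 2.13 log2.

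Because of this pattern, the replicate numbers were tested by an F test in a limma fit with the siRNA group and the number as terms, a test chosen after the values were seen. It called 3 of 45037 probe sets, 0.00666%, and 0 of the 19 members. The adjusted p was 0.34 for the second and 0.415 for the brightest Stk39 probe set. At an unadjusted p of 0.05 it held 3 of the 19 members, these 2 and the second Wnk2 probe set (adjusted p = 0.549), against 7.95% of the array. Nothing is read from this count, since the Stk39 pattern prompted the test and both Stk39 probe sets share a source sequence. Without control siRNA replicate 3 the adjusted p values of the second and the brightest Stk39 probe set were 0.216 and 0.271, so the call did not change. Without Hlxb9 siRNA replicate 3, where number 3 is represented by control siRNA replicate 3 alone, the second Stk39 probe set passed (adjusted p = 0.037) among 3459 probe sets called.

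Between the siRNA groups, Stk39 overlapped on all 3 probe sets. The brightest differed by 0.22 ± 0.23 log2 (SE, 95% interval -0.31 to 0.75) and by 0.03 without control siRNA replicate 3. Replicate 3 was low in both groups, so leaving out only the control array unbalances the comparison. Without replicate 3 of both groups the difference was 0.24. Within replicate numbers the brightest probe set was higher after Hlxb9 siRNA by 0.26, 0.22 and 0.18 log2. With the replicate number as a block the interval of the difference narrowed to -0.04 to 0.48 log2 and still held 0. The second probe set differed by 0.06 ± 0.28 log2, and within numbers by 0.0028, 0.09 and 0.08. Without control siRNA replicate 3 its difference was -0.20, and without replicate 3 of both groups it was 0.05.

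**Figure D2:**
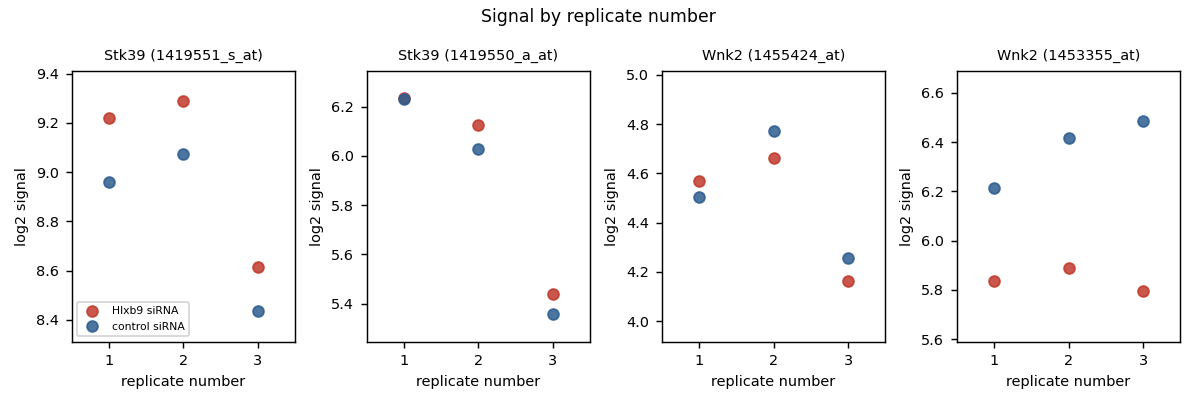
Log2 signal (vertical axis) against replicate number (horizontal axis) for both bright Stk39 probe sets and for 2 of the Wnk2 probe sets, with Hlxb9 siRNA arrays in red and control siRNA arrays in blue. Replicate 3 is lowest in both groups for Stk39 and for the second Wnk2 probe set, whereas the brightest Wnk2 probe set is lower after Hlxb9 siRNA at every number.

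On the import side, Slc12a2 encodes NKCC1, which brings sodium, potassium and chloride into the cell. Its brightest probe set read 9.36, 9.67 and 9.57 after Hlxb9 siRNA and 9.73, 9.60 and 9.84 after control siRNA. The groups overlapped through replicate 2, which was higher after Hlxb9 siRNA by 0.07 log2, whereas replicates 1 and 3 were lower by -0.37 and -0.28. The difference was -0.19 ± 0.12 log2 (SE, 95% interval -0.48 to 0.09), and -0.13 without control siRNA replicate 3. It was -0.029 log2 with array weights and -0.058 for the mean of the gene's probe sets. Its 2 other probe sets, annotated to the same source sequence, were far dimmer and differed by 0.14 ± 0.12 and -0.12 ± 0.16 log2.

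On the export side, Slc12a5 encodes KCC2, the potassium chloride exporter known for lowering chloride in mature neurons. Its brighter probe set, above 73.5% of the array, read 7.98, 7.97 and 7.96 after Hlxb9 siRNA and 7.96, 7.86 and 8.44 after control siRNA. The Hlxb9 siRNA arrays spanned 0.012 log2, and control siRNA replicate 3 alone was high. The difference of -0.12 ± 0.16 log2 (SE) became 0.06 without that array. The other Slc12a5 probe set, of the same source sequence, was dim and differed by -0.06 log2. Slc12a7 encodes KCC4, another exporter, and both of its probe sets were dim, brighter than 33.2% and 8.6% of the array. The brighter read 3.74, 3.74 and 3.97 after Hlxb9 siRNA and 3.44, 3.81 and 4.30 after control siRNA, so its controls spread over 0.86 log2. Its difference was -0.03 ± 0.21 log2, and 0.19 without control siRNA replicate 3. The dimmer one differed by 0.04 ± 0.11, and by 0.11 without that array.

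Over the 19 probe sets, 10 were higher and 9 lower after Hlxb9 siRNA, with a median difference of 0.02 log2, while 49.0% of all probe sets were lower and their median was 0.0041. The median size of the difference, whatever its sign, was 0.09 log2 among the members and 0.12 over the array. Limma called 0 of the 19 and 0 of 45037 probe sets at an adjusted p of 0.05, 0.0% of the array. At an unadjusted p of 0.05 it held 1 of the 19, the brightest of Wnk2, against 7.62% of the array, and nothing is read from this count, since Wnk2 was known to differ. The groups did not overlap in 1 probe set that was lower (Wnk2) and 1 that was higher (Wnk1), against 7.29% and 8.27% of all probe sets in those directions. With array weights, which down-weight arrays far from their group mean, limma called 1 of the 19, the same Wnk2 probe set, and 2.51% of the array. Leaving out any single array brought that weighted count to 0 over the array. The weights were 4.46 for control siRNA replicate 2 and 2.91 for Hlxb9 siRNA replicate 2, against 0.204 to 0.792 for the other arrays. Nothing is read from the weighted call of Wnk2 either, for the same reason. In 5 of the 6 genes with several probe sets, these differed in opposite directions. Leaving out control siRNA replicate 3 turned the sign of 5 of the 19 differences, none of them larger than 0.12 log2 with all arrays. In bulk RNA a smaller share of expressing cells and less transcript per cell cannot be told apart.

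**Figure D3:**
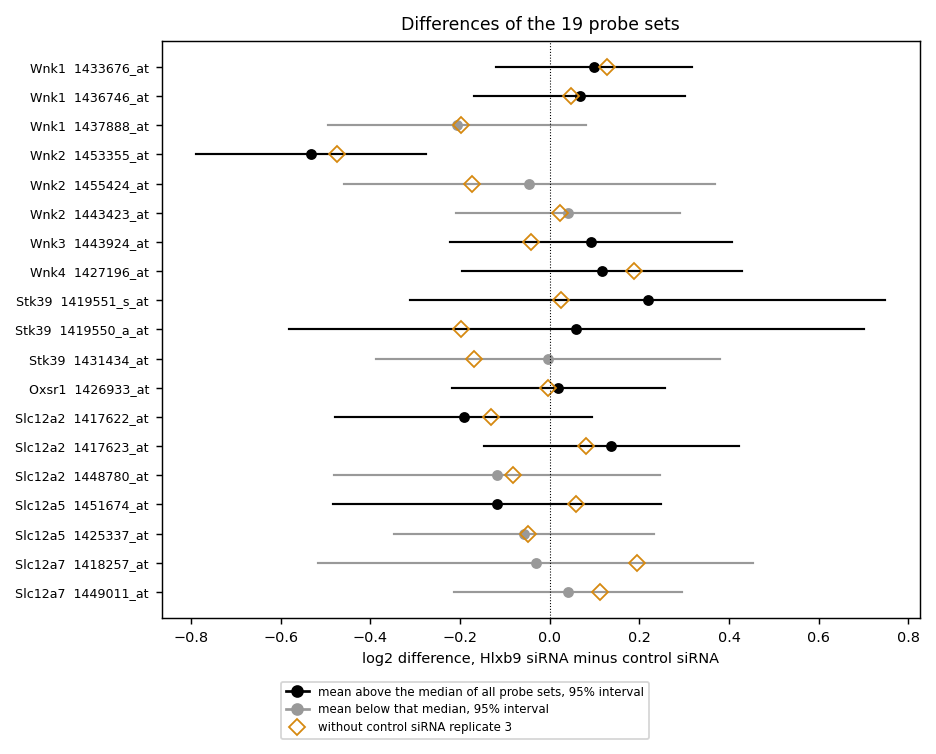
Log2 difference of Hlxb9 siRNA minus control siRNA (horizontal axis) for the 19 probe sets, with 95% intervals of the limma fit, black where the probe set is brighter than the median of all and grey where dimmer, and diamonds for the difference without control siRNA replicate 3. The interval of the brightest Wnk2 probe set, -0.79 to -0.28, lies below 0, and the intervals of the other 18 hold 0.

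The wider pathway was read through 69 of 81 listed genes, each by its brightest probe set, of which 44 lay above the median of all probe sets. Limma called 0 higher and 0 lower at an adjusted p of 0.05, 30 were higher and 39 lower after Hlxb9 siRNA, and the median difference was -0.03 log2 (0.03 without control siRNA replicate 3). At an unadjusted p of 0.05 there were 5 of the 69, close to the 7.62% of the array. Groups did not overlap in 7 of the 69 that were higher and 6 that were lower, against 8.27% and 7.29% of all probe sets.

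Partners and regulators of the WNK cascade numbered 19, of which 8 had a positive and 11 a negative difference (median -0.03 log2, and 0.02 without control siRNA replicate 3). Below an unadjusted p of 0.05 were 2 of the 19, against 7.62% of the array. Klhl2, an adaptor that brings WNK kinases to the Cul3 ubiquitin ligase, read 9.78 ± 0.11 after Hlxb9 siRNA and 10.22 ± 0.14 after control siRNA (SD, n = 3 each). Its groups did not overlap, and its difference of -0.44 ± 0.12 log2 (SE) was matched by -0.47 on its other probe set. Nrbp2, a pseudokinase related to the WNK family, differed by 0.49 ± 0.20 log2 and its groups overlapped. Tsc22d2, of a family of proteins that bind WNKs, differed by -0.24 ± 0.14 without overlap on its brightest probe set and by 0.19 on the other.

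Other SLC12 transporters, 5 genes of which 2 lay above the median of all probe sets, had differences from -0.25 to -0.0009 log2, with a median of -0.15. Without control siRNA replicate 3 their median was -0.06, and Slc12a1 and Slc12a9 had positive differences of 0.11 and 0.04. With all arrays Slc12a9 differed by -0.22 ± 0.22 log2 (-0.31 on its other probe set) and Slc12a4, encoding the exporter KCC1, by -0.05 ± 0.15, or -0.20 without that array.

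Chloride channels and exchangers split into 9 with a positive and 11 with a negative difference (median -0.04 log2, and 0.05 without control siRNA replicate 3). Below an unadjusted p of 0.05 was 1 of the 20, against 7.62% of the array. Groups did not overlap in 5 of the 20 that were higher and 2 that were lower, against 8.27% and 7.29% of all probe sets. Slc26a6, an anion exchanger, differed by 0.25 ± 0.10 log2 (SE) and Clcn6, a late endosomal chloride proton exchanger, by 0.23 ± 0.10, both without overlap. Lrrc8a, the essential subunit of the volume-regulated anion channel, differed by 0.16 ± 0.14, and by 0.02 without control siRNA replicate 3. GABA and glycine receptor subunits, whose current depends on the chloride gradient, split into 6 positive and 8 negative differences (median -0.04 log2, and 0.02 without control siRNA replicate 3), with 10 of them dimmer than the median of all probe sets. Gabra4 differed by -0.25 ± 0.36 log2 (-0.06 on its other probe set), and by -0.60 without control siRNA replicate 3. Replicate 3 was its lowest array in both groups, at 6.15 after Hlxb9 siRNA and 6.27 after control siRNA. Leaving out only the control array therefore unbalances its comparison. Glrb differed by -0.19 ± 0.10 without overlap (0.02 on its other probe set) and Gabrd by 0.14 ± 0.14 (-0.26 on its other probe set).

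Osmotic response and sodium pump genes gave 7 positive and 4 negative differences, the median being 0.13 log2 (0.05 without control siRNA replicate 3). Below an unadjusted p of 0.05 were 2 of the 11, against 7.62% of the array. Slc5a3, a myo-inositol transporter that takes up osmolyte, read 8.65 after Hlxb9 siRNA and 9.05 after control siRNA, a difference of -0.41 ± 0.15 log2 (SE) with overlapping groups (-0.52 without control siRNA replicate 3, and -0.24 to -0.05 on its other probe sets). Nfat5, the transcription factor of the osmotic response, differed by 0.25 ± 0.14, with its other probe sets from -0.17 to 0.22. Atp1b3, a beta subunit of the sodium pump, was 11.30 after Hlxb9 siRNA and 11.03 after control siRNA, 0.27 ± 0.11 log2 higher without overlap.

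**Figure D4:**
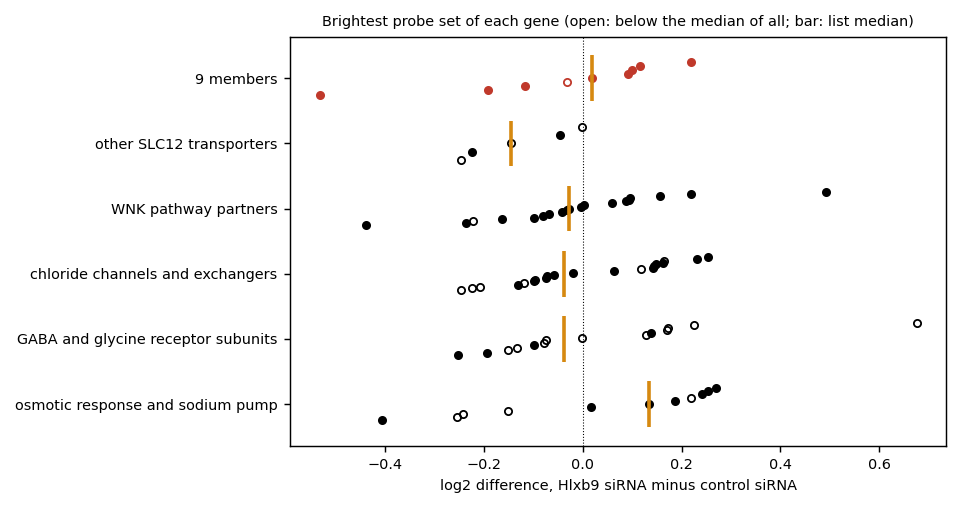
Log2 difference of Hlxb9 siRNA minus control siRNA (horizontal axis) on the brightest probe set of each gene, for the 9 members in red and 5 related gene lists in black, with open points for probe sets dimmer than the median of all and bars at list medians. With all arrays Wnk2 at -0.53 lies left of every gene of the 5 lists. Without control siRNA replicate 3 (not drawn) Wnk2 at -0.47 lies right of Gabra4 at -0.60 and Slc5a3 at -0.52. Gabra4 and Slc5a3 were lowest at replicate 3 in both groups, so leaving out only the control array unbalances their comparison.

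The genes whose signal followed the brightest Wnk2 probe set most closely over the 6 arrays were Ung, a uracil DNA glycosylase (Pearson r = 0.989), Gprc5b, an orphan receptor (0.984), Ubald1 (0.983), Pigt, a subunit of the GPI transamidase (0.983), and Cd24a (0.98). They are the highest of 19206 candidate probe sets, and 182 genes exceeded 0.9, so the values are a description of these arrays. Gprc5b read 6.22, 6.38 and 6.15 after Hlxb9 siRNA and 6.72, 6.81 and 6.99 after control siRNA, a difference of -0.59 log2. Ung followed the same order with a difference of only -0.09 log2.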

How the data were processed

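Signal was measured on 6 Affymetrix mouse arrays, 3 per group, from 6 ug of total RNA each. The deposited values are log2 signals, made by the authors with RMA and Partek per the submitters' processing notes; the sources used here give no versions or settings. The 64 array control probe sets were set aside. Genes were named from the platform annotation, and 34945 probe sets have 1 symbol. Arrays have no read depth, and having 3 per group limits the precision.

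All 45037 probe sets were fitted with limma 3.58.1 (R 4.3.3), lmFit and eBayes, two-sided, with Benjamini-Hochberg adjustment over all of them. The fit was tested on simulated data. The members and lists were chosen with earlier results of these data known. For each list the text names up to 3 genes with the largest difference among those brighter than the median of all (5.16). Markers named singly were picked after their values were seen. Likeness to Wnk2 was ranked among single-symbol probe sets above that median.

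Groups share replicate numbers. Deviations from group means correlated at 0.155, 0.165 and 0.202 between same-numbered arrays, and at 0.072 or lower between others. Each is over 0.1, so same-numbered arrays were also compared as pairs, in the differences within replicate numbers and in the replicate block. The main fit has no replicate term, so its SEs and intervals are unpaired. The pairing rests on the values, as the labels state no shared day. The replicate block, array weights, other normalizations, an offset of 32 on the linear scale, a filter on dim probe sets and leaving out each array were alternatives.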

Additional observations from a re-analysis of the deposited data

How the results depend on the processing

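The brightest Wnk2 probe set kept its sign under every alternative tried, from -0.61 to -0.36 log2 with the offset at the smaller end, and at -0.18 for the mean of the gene's probe sets. Its groups were apart with all arrays, so leaving out, weighting or pairing arrays could not turn its sign. Wnk2 was also known to differ when the genes were chosen, so the kept sign is only a description. Of 227 member values under alternatives, 34 changed sign and 9 moved by more than the spread within groups. The count of member probe sets lower after Hlxb9 siRNA (9 of 19) was 12 of 19 after centring each array on its median, 7 to 10 without 1 array, and 4 of 9 with the brightest probe set of each gene alone. Probe sets without overlap (2) numbered 1 after centring or repeated quantile normalization, where Wnk1 dropped out, and 2 to 5 without 1 array. Fewer arrays make separation easier. The share of all probe sets without overlap under these settings is not given here, so nothing is read from these counts. Over the array, 0 probe sets passed in every unweighted fit, including the replicate block, and 1132 with array weights. The count at an unadjusted p of 0.05 (3430) was 2002 without dim probe sets, where fewer were tested, 4191 with the replicate block, 11199 with array weights and 1757 to 4589 without 1 array, 1757 without Hlxb9 siRNA replicate 1 and 1829 without Hlxb9 siRNA replicate 2. The test of replicate numbers, added after the data were seen, called 3 probe sets, and 38 without control siRNA replicate 3 or 3459 without Hlxb9 siRNA replicate 3. The cause was not tested. The replicate block changed no member's call. No detection calls were used, so whether the 8 member probe sets dimmer than the median exceed background is not known here.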
